A study of Mus musculus with 12 samples.

Results

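The immediate early genes described here are Fos, Fosb, Jun, Junb, Egr1, Egr3, Arc, Npas4, Nr4a1 and Ier2, taken by symbol from a table of 53707 genes measured in mouse retinal explants. All 10 of 10 matched 1 gene identifier, and 10 of 10 passed the filter on low counts that left 21061 genes for testing. The explants were whole retinas of wild-type C57BL/6J mice at 28 days of age, freed of sclera and retinal pigment epithelium and kept for 48 hours with 5 mM or 25 mM glucose. Both groups shared the same Neurobasal-A medium with B27 and N2 supplements and the same time of dissection after lights on. The culture protocol ended with 1 hour in Krebs' Ringers medium, and retinas for RNA were processed immediately. Whether the retinas for RNA also had that hour is not clear from the description. Each concentration had 3 biological replicates with 2 technical replicates, 12 libraries in all, and the labels place the first technical replicates in batch 1 and the second in batch 2. The comparison of 25 mM with 5 mM asks how gene expression in the retina follows the supply of glucose, and an explant has lost its blood flow, its pigment epithelium and its optic nerve. How many animals or cultures stand behind a biological replicate was not given in the sources used here, so the p-values measure the spread between these samples, which may be technical in part.

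Immediate early genes are switched on within minutes of a stimulus by transcription factors that are already present in the cell, such as SRF with its ELK partners and CREB, and their messages are short-lived. In neurons they follow synaptic activity and calcium entry, and in glia and vascular cells growth factors and stress, and light itself drives several of them in the retina. Most encode transcription factors that pass the signal on to later genes, while Arc acts at synapses. Whole tissue was measured, so that fewer cells of a type and less RNA per cell cannot be told apart.

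Library totals lay between 17998905 and 36692484 estimated counts at 5 mM and between 14815285 and 23129541 at 25 mM. Technical replicates were summed, and levels are given as CPM, the usual scaled count, after TMM, a correction for the composition of each library. The tissue label fitted its markers, with mean levels of Gnat1, the rod transducin subunit, of 1013 CPM in the low and 1383 CPM in the high glucose group. The summed markers of the pigment epithelium lay between 0.492 and 1.72 CPM, and Rpe65 and Mlana were at 0 in single replicates at 25 mM. At an FDR under 0.05, that is edgeR's quasi-likelihood p after Benjamini-Hochberg adjustment over all genes, 417 genes (1.98%) differed between the concentrations, 309 of them higher (1.47%) and 108 lower (0.513%) at 25 mM. That count rests on single replicates, since it was 5845 without 5 mM replicate 1, 494 without 25 mM replicate 3 and 0 without any 1 of the other 4.

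On GRCm38, Fos (ENSMUSG00000021250) spans chr12:85473890-85477273 and Fosb (ENSMUSG00000003545) chr7:19302696-19310051, Jun (ENSMUSG00000052684) chr4:95049034-95052222 and Junb (ENSMUSG00000052837) chr8:84974484-84978718. Egr3 (ENSMUSG00000033730) lies at chr14:70077203-70082614 and Npas4 (ENSMUSG00000045903) at chr19:4984355-4990316. Chromosome 15 carries both Arc (ENSMUSG00000022602), at chr15:74669083-74672570, and Nr4a1 (ENSMUSG00000023034), at chr15:101254269-101274795, and chromosome 8 carries Ier2 (ENSMUSG00000053560) at chr8:84661331-84662852 near Junb. The annotation lists them as protein-coding genes.

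Promoters of this gene class carry short elements through which the inducing factors act, and 6 of the 10 genes had an entry in the RefSeq promoter table for GRCm38.p6. The 250 bases before the start are shown for Fos and Nr4a1, whose levels varied together most closely over the libraries, and for Junb, which had the largest difference between the concentrations. Sequences run 5′ to 3′ on the gene's strand, with the core of the CREB element, TGACG or its reverse complement CGTCA, and the TATA element TATAAA in capitals.
Fos, chr12:85473640-85473889, plus strand: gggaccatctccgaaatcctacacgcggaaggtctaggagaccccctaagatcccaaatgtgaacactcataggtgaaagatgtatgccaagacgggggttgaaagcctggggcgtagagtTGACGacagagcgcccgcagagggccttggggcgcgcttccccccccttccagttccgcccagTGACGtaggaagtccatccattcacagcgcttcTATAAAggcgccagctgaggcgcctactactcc
Nr4a1, chr15:101266596-101266845, plus strand: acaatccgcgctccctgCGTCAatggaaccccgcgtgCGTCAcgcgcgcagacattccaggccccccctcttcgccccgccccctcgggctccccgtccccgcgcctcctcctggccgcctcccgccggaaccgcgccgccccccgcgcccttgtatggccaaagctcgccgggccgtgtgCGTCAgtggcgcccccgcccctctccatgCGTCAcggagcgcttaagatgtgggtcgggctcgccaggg
Junb, chr8:84978749-84978998, minus strand: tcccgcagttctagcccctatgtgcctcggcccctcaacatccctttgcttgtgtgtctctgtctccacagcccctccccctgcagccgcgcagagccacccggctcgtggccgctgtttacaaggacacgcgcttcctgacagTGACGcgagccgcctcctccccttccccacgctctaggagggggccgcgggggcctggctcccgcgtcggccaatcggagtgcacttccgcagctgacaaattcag

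The TGACG core was found on either strand in 5 of these 6 windows and in 17.8% of 32851 mouse promoter windows of the same length. In Nr4a1 it stood 4 times, with first bases 233, 213, 69 and 40 bases before the start. Fos held 2 copies, at 129 and 66 bases, and the TATAAA of Fos lay 33 bases before the start, a motif that 12.4% of all windows held. Npas4 also had 2 copies of the core, at 179 and 169 bases before its RefSeq start, while Junb had 1 at 106 and Fosb 1 at 60. Jun had none in this window. The full CREB palindrome TGACGTCA, the AP-1 element TGACTCA and the CArG box of SRF had 0 matches in the 6 windows, against 1.55%, 4.46% and 1.47% of all windows. GCGGGGGCG, the element that EGR factors bind, was present in Fosb and in Nr4a1 and in 2.57% of all windows. Matches describe these letters only, each motif was matched exactly, and sites more than 250 bases before the start were not searched. The 0 matches therefore do not show that a gene lacks such an element. The Nr4a1 window lies within an intron of the longer form Nr4a1-202. Egr1, Egr3, Arc and Ier2 had no entry.

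None of the 10 immediate early genes passed an FDR under 0.05 between 25 mM and 5 mM glucose, and edgeR called 1.98% of all genes. Only Junb, 1 of 10, had an unadjusted p under 0.05 in edgeR, as did 28.7% of all genes, with DESeq2 calling the same single gene at an FDR under 0.05 where it called 16.6% of all genes. For 0 of 10 were the 3 replicates at 25 mM all apart from the 3 at 5 mM, a separation that 31.8% of all genes showed. The log2 fold change was below 0 for 8 genes, as for 50.7% of all genes, and above 0 for 2, Fos and Nr4a1, as for 49.3%, with a median of -0.30 beside -0.01 over all genes tested. Per library the 10 genes took between 0.0433% and 0.11% of the counts.

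Levels per length of transcript, in CPM per kilobase over the 6 replicates, put the zinc finger factor Egr1 first at 99.5 ± 18.3 (SD, n = 6) and Fos next at 79.2 ± 11.3. Jun followed at 38.9 ± 10.2, Fosb at 18.5 ± 5.4 and Nr4a1 at 15.3 ± 1.77. The lower group held Ier2 at 5.83 ± 1.9, Npas4 at 4.51 ± 1.16, Junb at 3.7 ± 2.57, Arc at 2.83 ± 1.31 and Egr3 at 2.18 ± 0.453. Only 2 steps of this order had ranges that did not overlap between neighbours, from Fos down to Jun and from Nr4a1 down to Ier2. The other neighbours overlapped, although Egr1 exceeded Fos and Jun exceeded Fosb within each of the 6 replicates. These levels rest on gene values, and that of Jun was 1.96 to 2.01 times its transcript sum, against 0.985 to 1.01 for Fosb. The order of Jun and Fosb may therefore differ by transcript sums, which was not tested.

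The AP-1 subunits came from both families of the dimer. Fos, the founding FOS subunit, measured 154, 188 and 140 CPM at 5 mM and 164, 135 and 189 CPM at 25 mM. The 2 sets covered the same range, and the log2 fold change was 0.02 with a standard error of 0.19 and an FDR of 0.957 in edgeR with Benjamini-Hochberg adjustment. Its 95% interval ran from 0.747-fold to 1.37-fold, and larger changes in the mean lay outside it.

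Fosb, the FOS relative known for its stable truncated form in chronically stimulated neurons, measured 59.0, 97.3 and 83.5 CPM at 5 mM and 49.5, 47.3 and 69.3 CPM at 25 mM. The lowest 5 mM replicate lay below the highest 25 mM replicate. The log2 fold change was -0.53 (SE 0.24), with an unadjusted p of 0.0558 and an FDR of 0.184 in edgeR with Benjamini-Hochberg adjustment. The 95% interval of the ratio ran from 0.475 to 1.01.

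Jun, the partner of FOS proteins, measured 117, 180 and 121 CPM at 5 mM and 106, 83.7 and 137 CPM at 25 mM. Replicate 2 stood high at 5 mM and low at 25 mM, and the groups overlapped in the others. Between the concentrations the log2 fold change was -0.35 (SE 0.24) and the edgeR FDR after Benjamini-Hochberg adjustment 0.359, and the 95% interval of the ratio ran from 0.532 to 1.16. Exons of Jun overlap those of the antisense gene Junos, and whether counting used the strand was not given in the sources used here.

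Junb, a JUN family member that can also restrain AP-1 activity, had the largest difference of the 10 genes. It measured 4.64, 14.9 and 8.8 CPM at 5 mM and 3.17, 2.65 and 5.69 CPM at 25 mM. The values at 25 mM were low in all 3 replicates, and the lowest 5 mM replicate fell within their range. Mean levels were 9.46 ± 5.19 and 3.84 ± 1.63 CPM (SD, n = 3), a ratio of 0.407 with a 95% interval from 0.192 to 0.861. The log2 fold change was -1.3 (SE 0.47), with an unadjusted p of 0.0242 and an FDR of 0.124 in edgeR with Benjamini-Hochberg adjustment. Without 5 mM replicate 1, where Junb was lowest among the 5 mM replicates, Junb was at -1.63 (FDR 0.023) and Fosb at -0.71 (FDR 0.0383) in edgeR with Benjamini-Hochberg adjustment, and that fit called 26.6% of all genes. Without 5 mM replicate 2, where both were highest, Junb was at -0.81 (FDR 0.356) and Fosb at -0.37 (FDR 0.455) in edgeR with Benjamini-Hochberg adjustment. DESeq2 gave Junb an FDR of 0.0364 with Benjamini-Hochberg adjustment at the same log2 fold change of -1.3. Junb overlaps Prdx2 on the opposite strand.

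The EGR factors bind GC-rich elements. Egr1 (ENSMUSG00000038418, chr18:34859823-34864984), the most abundant of the 10 genes, measured 289, 401 and 309 CPM at 5 mM and 302, 225 and 309 CPM at 25 mM. Replicate 2 was again the highest at 5 mM and the lowest at 25 mM. Egr1 had a log2 fold change of -0.25 (SE 0.21), with an edgeR FDR of 0.428 after Benjamini-Hochberg adjustment and a 95% interval from 0.605-fold to 1.16-fold.

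Egr3, an EGR factor that is itself an EGR1 target in several cell types, measured 11.6, 7.15 and 6.89 CPM at 5 mM and 8.25, 7.68 and 9.15 CPM at 25 mM. All 3 values at 25 mM lay inside the 5 mM range, and the 95% interval of the ratio ran from 0.626 to 1.52. The log2 fold change was -0.03 (SE 0.28, edgeR FDR 0.947 after Benjamini-Hochberg adjustment), and the sign of so small a value turned with the scaling, to 0.04 with library totals.

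Npas4, a factor that in neurons is induced by calcium entry with high selectivity, measured 17.0, 14.1 and 9.86 CPM at 5 mM and 11.9, 8.26 and 14.6 CPM at 25 mM. Both groups held high and low replicates, and the log2 fold change was -0.24 (SE 0.3, edgeR FDR 0.62 after Benjamini-Hochberg adjustment), with a 95% interval from 0.527-fold to 1.37-fold. Nr4a1, an orphan nuclear receptor, measured 34.5, 35.3 and 29.2 CPM at 5 mM and 37.0, 28.1 and 36.8 CPM at 25 mM. Its log2 fold change was 0.04 (SE 0.19), with an interval from 0.762-fold to 1.39-fold and an edgeR FDR of 0.902 after Benjamini-Hochberg adjustment. Scaling the technical replicates to equal depth before summing put Nr4a1 and Fos both at -0.04, so that neither gene had a settled direction.

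Arc, a synaptic protein that regulates AMPA receptors and forms capsid-like shells, measured 6.1, 14.2 and 10.9 CPM at 5 mM and 3.66, 5.99 and 11 CPM at 25 mM. Each group held a low replicate and a replicate near 11 CPM. Its log2 fold change was -0.59 (SE 0.45), the widest error after Junb, with an edgeR FDR of 0.404 after Benjamini-Hochberg adjustment and a 95% interval from 0.322-fold to 1.36-fold. Ier2, a small nuclear protein of the serum response, measured 6.7, 13.5 and 10.2 CPM at 5 mM and 7.55, 5.52 and 9.71 CPM at 25 mM. Its log2 fold change was -0.42 (SE 0.33, edgeR FDR 0.428 after Benjamini-Hochberg adjustment), with the groups overlapping and a 95% interval from 0.441-fold to 1.28-fold.

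**Figure D1:**
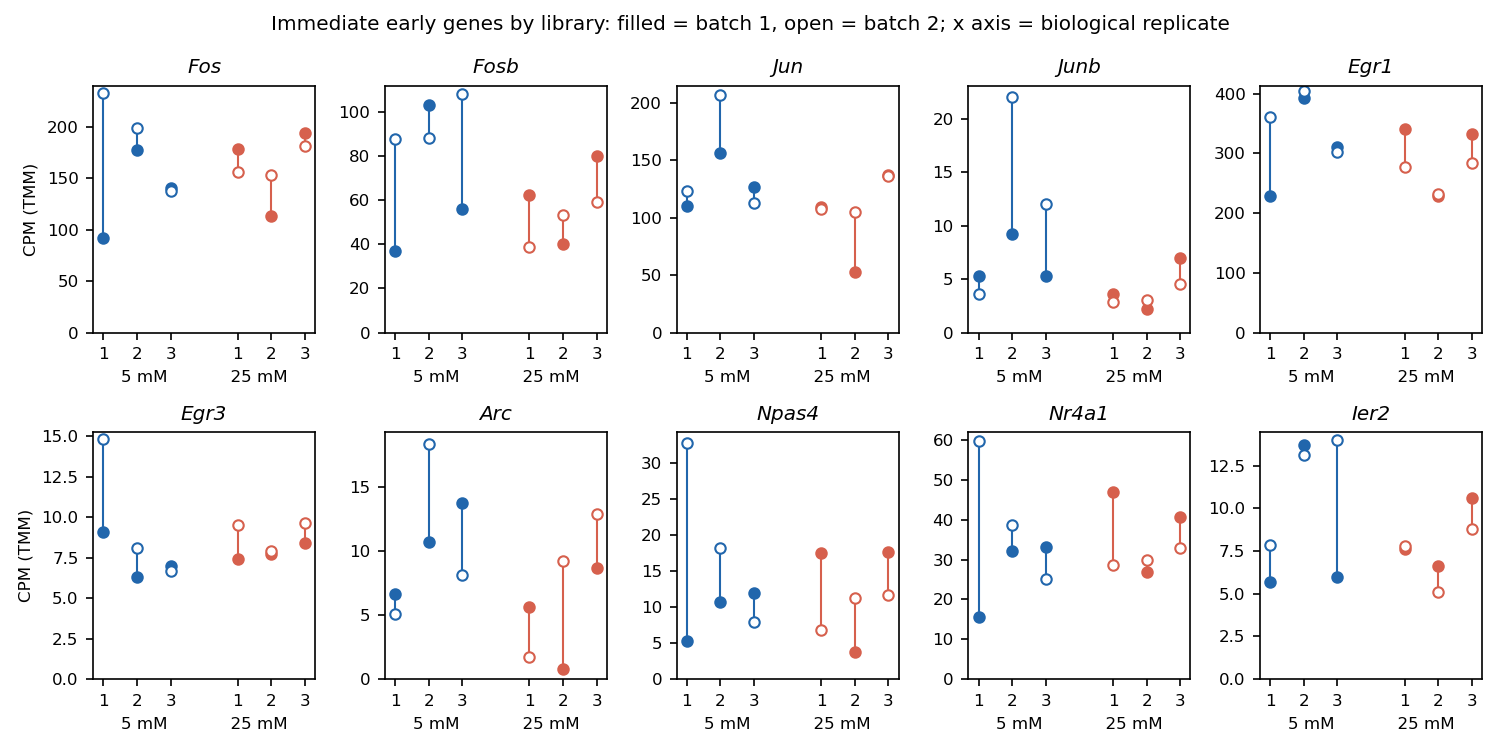
Level of each immediate early gene in CPM (TMM, linear axis from 0) in all 12 libraries, with filled points for batch 1 and open points for batch 2 and a line joining the technical replicates of a biological replicate (blue 5 mM, red 25 mM glucose). The long lines of Npas4 and Nr4a1 in 5 mM replicate 1, from 5.23 to 32.8 CPM and from 15.5 to 59.7 CPM, show technical replicates that lay farther apart than the means of the concentrations.

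Technical replicates of 1 biological replicate gave different levels for several of these genes. Gaps are given from log2 CPM with a prior count of 2, a small count added to each value, which shrinks them at low levels. In 5 mM replicate 1, Npas4 was at 5.23 CPM in the first library and 32.8 CPM in the second, a 6.18-fold gap on that scale. Nr4a1 went from 15.5 to 59.7 CPM there, Fos from 92.4 to 233 CPM and Fosb from 36.8 to 87.6 CPM, while Jun differed 1.11-fold. The median gap of the 10 genes in this replicate was 1.6-fold, beside 1.36-fold over all genes tested. In the other 5 replicates the median gap of the 10 genes lay between 1.22-fold and 1.41-fold and that of all genes between 1.25-fold and 1.47-fold.

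Arc had the widest single gap. It was at 0.826 CPM, from 10.8 estimated counts, in the first library of 25 mM replicate 2 and at 9.27 CPM in the second. The gap was 10.2-fold on the log2 scale with its prior count, which shrinks the plain ratio. In the same pair Npas4 went from 3.83 to 11.2 CPM and Jun from 52.9 to 105 CPM. The opposite order held in 25 mM replicate 1, where Arc was at 5.65 CPM in the first and 1.74 CPM in the second library and Npas4 at 17.5 and 6.8 CPM. Over the 6 libraries of a concentration the SD of log2 CPM reached 0.92 at 5 mM and 0.84 at 25 mM for Npas4 and 0.68 and 1.52 for Arc. Over all genes its median was 0.47 at 5 mM and 0.44 at 25 mM. Egr3 at 25 mM was the steadiest, with an SD of 0.15.

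Batch by batch, the glucose difference of 4 of the 10 genes took opposite signs, as it did for 29% of all genes. Npas4 had a log2 fold change of 0.47 in batch 1 and -1.0 in batch 2, and Nr4a1 of 0.48 and -0.45. Fos was at 0.22 and -0.22, and Egr3 at 0.05 and -0.14. The other 6 genes were below 0 in both batches. Junb was at -0.65 and -1.83, Fosb at -0.13 and -0.9, and Arc at -1.04 and -0.39. The median of the 10 genes was -0.06 in batch 1 and -0.44 in batch 2.

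The difference between the batches was tested as an interaction over the 12 libraries with the biological replicate as a block. It reached an FDR under 0.05 for 0 of 10 genes in edgeR, and for 0% of 18725 genes tested, of which 16.3% had an unadjusted p under 0.05. The lowest unadjusted p among the 10 was 0.0775 in edgeR, for Fosb, with an FDR of 0.356 after Benjamini-Hochberg adjustment. None of the 10 genes had an unadjusted p under 0.05, and no other tool was run on the interaction. Batch 1 alone called 17.3% of all genes and batch 2 alone 0%, with 34.6% and 11.7% at an unadjusted p under 0.05, and 0 of the 10 immediate early genes had an FDR under 0.05 in either. At an unadjusted edgeR p under 0.05 there were 0 of the 10 in batch 1 and 2 in batch 2, Fosb and Junb.

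**Figure D2:**
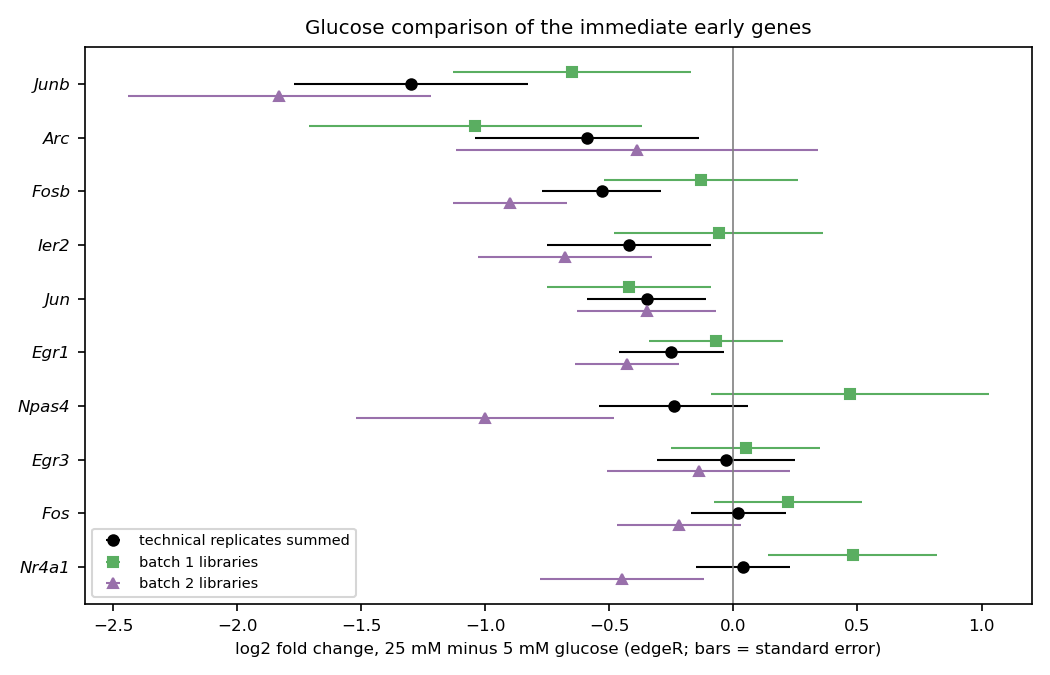
Log2 fold change of 25 mM minus 5 mM glucose for each immediate early gene, from summed technical replicates (black circles), batch 1 libraries alone (green squares) and batch 2 libraries alone (purple triangles), with bars of 1 standard error from edgeR. Junb lies lowest at -1.3, and Npas4, Nr4a1, Fos and Egr3 have batch values on both sides of 0.

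The genes varied together in subgroups over the 12 libraries. These libraries are technical replicates of 6 biological replicates and so are not independent, and the correlations are descriptions. Of 45 pairs, 12 had a Pearson r of log2 CPM above 0.7 and 5 an r below 0, with a median of 0.55. Fos, Npas4 and Nr4a1 formed the tightest set, at r = 0.91 for Fos with Nr4a1, 0.89 for Fos with Npas4 and 0.87 for Npas4 with Nr4a1. Leaving out the second library of 5 mM replicate 1, where all 3 were highest, gave 0.88, 0.85 and 0.81. Jun went with Arc at r = 0.84 and with Junb at 0.76, and Ier2 with Fosb at 0.81 and with Junb at 0.77. Nr4a1 and Junb had an r of 0.01. Egr3 stood apart from the rest, with an r between -0.34 for Junb and 0.41 for Npas4. Its positive values rested on that same library, without which Egr3 had an r of -0.13 with Npas4, -0.41 with Egr1 and -0.62 with Fosb.

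A score was made for each library as the mean over the 10 genes of their z-scored log2 CPM, and 14228 other protein-coding genes were ranked by their r with it. Among the genes most like the score were Sema4d, a semaphorin, at r = 0.94, and Bcas3, Nudt8, Wnk4 and Mtss1l at 0.90. By Spearman's rho instead, 1 of the first 6 stayed among them. The least like were mt-Nd3 at r = -0.98, mt-Atp6 at -0.97 and mt-Nd1 at -0.96, which are encoded by the mitochondrial genome and make subunits of the respiratory chain and of ATP synthase. All 13 coding genes of the mitochondrial genome had an r between -0.98 and -0.77, and 9 of them were among the 20 lowest, while the median r over all ranked genes was 0.14. In all, 4.34% of genes had an r above 0.7 and 4.01% below -0.7.

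The share of a library's counts on the mitochondrial genome ran opposite to the score. It was 11.8% and 7.56% in the technical replicates of 5 mM replicate 1, 6.24% and 5.91% in those of replicate 2, and 8.25% and 7.22% in those of replicate 3. At 25 mM it was 9.25% and 8.69%, 15.4% and 10.2%, and 7.94% and 8.02%. The libraries with the highest shares, the first ones of 25 mM replicate 2 and 5 mM replicate 1, had the lowest scores, -1.35 and -0.94, and the library with 5.91% had the highest, 1.07. Over 12 libraries r was -0.89 and Spearman's rho -0.91, and without the 2 libraries farthest from the median share r was -0.79. Within the 6 libraries at 5 mM r was -0.9 and within those at 25 mM -0.88.

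Over the 12 libraries Jun had an r of -0.9 with the mitochondrial share, Egr1 of -0.83, Fosb of -0.76, Arc of -0.72 and Fos of -0.71. Nr4a1 was at -0.46, and at -0.68 and -0.53 within 5 mM and 25 mM. Egr3 was at 0.0 over all, at 0.22 within 5 mM and at -0.52 within 25 mM. The share and the CPM of a library rest on the same total, and with counts scaled to the non-mitochondrial total in place of CPM, a scaling chosen after the data were seen, the score had an r of -0.87. Other measures followed the score less closely over 12 libraries, with an r of -0.17 for the library total, -0.29 for summed rod markers, 0.13 for vascular markers, 0.34 for Mueller glia markers and 0.49 for microglia markers. The library total had an r of -0.87 at 5 mM and 0.52 at 25 mM. The part of the mitochondrial share or of depth in the levels of these genes was not tested.

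**Figure D3:**
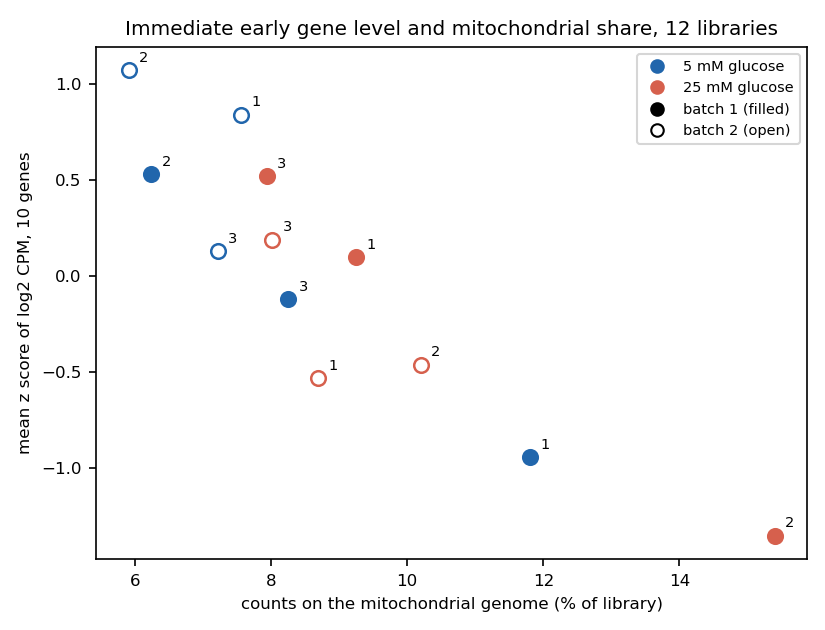
Score of the 10 immediate early genes (mean z score of log2 CPM) against the percentage of counts on the mitochondrial genome in each of 12 libraries, coloured by glucose, filled for batch 1 and open for batch 2, with the biological replicate written beside each point. Points fall from a score of 1.07 at 5.91% to -1.35 at 15.4%, with libraries of both concentrations between them.

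The wider early response was described with 4 lists of 96 genes written from general knowledge, of which 0 reached an FDR under 0.05 in edgeR with Benjamini-Hochberg adjustment. DESeq2 called 22 of them, beside 16.6% of all genes, and without 5 mM replicate 1 edgeR called 29, beside 26.6% of all genes. Of 22 other early response transcription factors, 19 had a log2 fold change below 0, with a median of -0.68, and 10 were lower and 0 higher at an unadjusted edgeR p under 0.05, beside 15.5% and 13.2% of all genes. The groups did not overlap for 9 of the 22, beside 31.8% of all genes. Fosl2, a FOS family subunit, had means of 105 and 36.9 CPM at 5 and 25 mM, a log2 fold change of -1.5 (SE 0.38) and an edgeR FDR of 0.0681 after Benjamini-Hochberg adjustment. Bhlhe40, a circadian repressor, was at -0.71 and Klf10, a Kruppel-like factor induced by TGF-beta, at -0.79. The most abundant of this list were Klf6, with means of 438 and 271 CPM, Btg2, an antiproliferative gene, with 154 and 135 CPM, and Bhlhe40, with 142 and 87.1 CPM.

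Close relatives of the 10 genes, picked after their values were seen, were not uniform. Egr2 had a log2 fold change of 0.17 and Jund of 0.11, while Egr4 was at -1.3, Nr4a2 at -0.91, Nr4a3 at -0.63 and Fosl1 at -0.67. None of these 6 had an FDR under 0.05 in edgeR with Benjamini-Hochberg adjustment, and the lowest was 0.092, for Egr4.

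Early response feedback regulators and effectors, 32 genes, had a median of -0.62 with 29 below 0, beside 50.7% of all genes. At an unadjusted edgeR p under 0.05, 8 were lower and 1 higher, beside 15.5% and 13.2% of all genes. Dusp2, a MAP kinase phosphatase, had means of 5.76 and 1.3 CPM and a log2 fold change of -2.14 (SE 0.52), with an edgeR FDR of 0.0654 after Benjamini-Hochberg adjustment. Nab2, a corepressor of EGR factors, was at -1.03 and Rhob, a small GTPase, at -0.74. The most abundant were Plk2, a kinase induced by synaptic activity, with means of 588 and 348 CPM, Mcl1, a survival factor, with 383 and 305 CPM, and Ptgs2, the inducible cyclooxygenase, with 406 and 230 CPM. Groups did not overlap for 12 of the 32, a share near the 31.8% of all genes.

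Neuronal activity effectors, 11 genes, had a median of -0.45, with 3 lower and 0 higher at an unadjusted edgeR p under 0.05, beside 15.5% and 13.2% of all genes. Groups did not overlap for 4 of the 11, a share near the 31.8% of all genes. The lowest p belonged to Gpr3, a receptor that raises cyclic AMP, at -1.35, Vgf, a secreted neuropeptide precursor, at -1.75, and Baz1a, a chromatin remodelling subunit, at -0.9. The most abundant, Scg2 with 395 and 410 CPM, Inhba with 152 and 137 CPM and Rgs4 with 74.8 and 89.7 CPM, had log2 fold changes of 0.06, -0.15 and 0.26. Bdnf, named after its value was seen, was at -0.5, and Homer1 at -0.01.

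Genes upstream of the 10, 31 members of the SRF, CREB, MEF2 and MAP kinase pathways, had a median of -0.17, with 6 lower and 1 higher at an unadjusted edgeR p under 0.05, beside 15.5% and 13.2% of all genes. The lowest p were those of Cacna1c, the pore of a voltage-gated calcium channel, at -1.31, Mrtfb, a coactivator of SRF, at -1.66, and Elk3, an SRF partner, at -1.59. Their edgeR FDR values lay between 0.0516 and 0.0705 after Benjamini-Hochberg adjustment. Groups did not overlap for 7 of the 31, beside 31.8% of all genes.

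By batch, the 10 genes had a median of -0.06 and then -0.44. The median of the transcription factors was -0.79 for batch 1 and -0.43 for batch 2, and that of feedback regulators -1.17 and -0.09. Neuronal effectors were at -0.59 and -0.24 and the upstream genes at -0.08 and -0.07, and the differences between lists were not tested. Of 8 vascular cell markers, 7 had a log2 fold change below 0, as most genes of these lists did, beside 50.7% of all genes. Their medians were -2.81 (batch 1) and -0.7 (batch 2). Their summed levels were 1025 to 1775 CPM at 5 mM and 525 to 931 CPM at 25 mM. Microglia markers were below 0 for 7 of 7, with sums of 82.8 to 180 and 47.5 to 100 CPM. Rod markers were above 0 for 6 of 6, beside 49.3% of all genes, with sums of 2347 to 4835 and 4937 to 7077 CPM. Of the 6 rod markers, Nrl, Pde6b and Nr2e3 were higher at 25 mM at an FDR under 0.05 in edgeR with Benjamini-Hochberg adjustment. So was Opn1mw among 5 cone markers, of which 3 were above and 2 below 0. Over all genes 1.47% were higher at that FDR. The part of these markers in the levels of the early response genes was not tested.

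**Figure D4:**
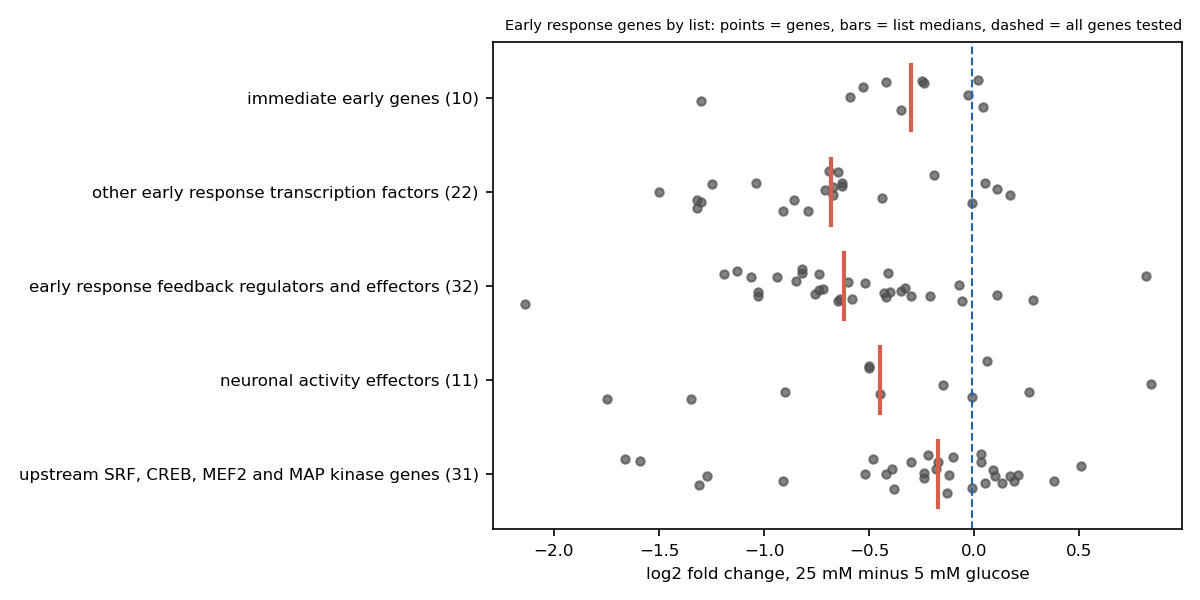
Log2 fold change of 25 mM minus 5 mM glucose for the 10 immediate early genes and the genes of 4 related lists, with 1 point per gene, a red bar at each list's median and a dashed line at the median of all genes tested, -0.01. The bar of the immediate early genes lies at -0.30 and those of the other lists at -0.68, -0.62, -0.45 and -0.17.

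The transcript table showed which annotated forms held the counts. Fos-201, the coding form of Fos, held 95.2% of the gene's transcript counts, and Jun and Ier2 have 1 annotated transcript each. Junb-201 held 99.3% and Egr1-202 97.2%. In Fosb the coding form Fosb-205, of 299 codons, held 61% and the retained-intron form Fosb-204 held 22.3%. The longest coding form, Fosb-201 of 338 codons, held 9.72%, and Fosb-206, which codes for 237 codons, was at 0 in all 6 replicates. Fosb-206 is annotated with 1090 bases against 3782 for Fosb-201, so its 0 does not show that a protein of that length was not encoded. Fosb-201 and Fosb-206 were named after their values were seen, and reads shared by overlapping forms leave such splits uncertain. Arc-201 and Arc-202 differ by 1 base in length, so their shares of 60.4% and 39.6% cannot be told apart with confidence.

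In Npas4 and Egr3 a large part of the counts lay on forms without a full coding sequence, and shares of 14 forms were compared between the concentrations. Npas4-203, annotated for nonsense-mediated decay, held 77.1%, 75.3% and 72.9% of Npas4 at 5 mM and 65.8%, 65.5% and 65.3% at 25 mM. The groups did not overlap, and the two-sided exact permutation p was 0.1, the smallest that 3 against 3 allows. The full coding form Npas4-201 held 20.5% on average. Egr3-202, a retained-intron form, held 70.8%, 29.2% and 29.7% of Egr3 at 5 mM and 78.2%, 87.9% and 57.1% at 25 mM, with an exact permutation p of 0.2, and the coding form Egr3-204 held 40.4% on average. Nr4a1-201 held 67.1%, 79.6% and 66.9% at 5 mM and 28.8%, 59.2% and 46.2% at 25 mM, again without overlap and with an exact permutation p of 0.1. Adjusted over the 14 forms by Benjamini-Hochberg, the lowest exact permutation p was 0.311. Nr4a1-202, a coding form from a start farther upstream, held 22.5% on average, and the retained-intron form Nr4a1-204 15.8%.

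Summed over all forms not annotated as protein coding, the share overlapped between the concentrations in 6 of 6 genes that have such forms. It was 78.2% ± 5.72 and 80.9% ± 8.28 (SD, n = 3) in Npas4, 43.2% ± 23.9 and 74.4% ± 15.7 in Egr3, 21.7% ± 1.56 and 22.9% ± 2.52 in Fosb, and 12.5% ± 6.21 and 19.1% ± 2.58 in Nr4a1. Within batch 1 the groups did not overlap in Fosb, with means of 19.1% at 5 mM and 25.8% at 25 mM, nor in Nr4a1, with 9.33% and 23.8%. In batch 2 they did not overlap in Fosb alone, with 23.3% and 19.3%, the opposite order. How often transcript shares lay apart in this way over all genes was not computed, so these counts have no background beside them.

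**Figure D5:**
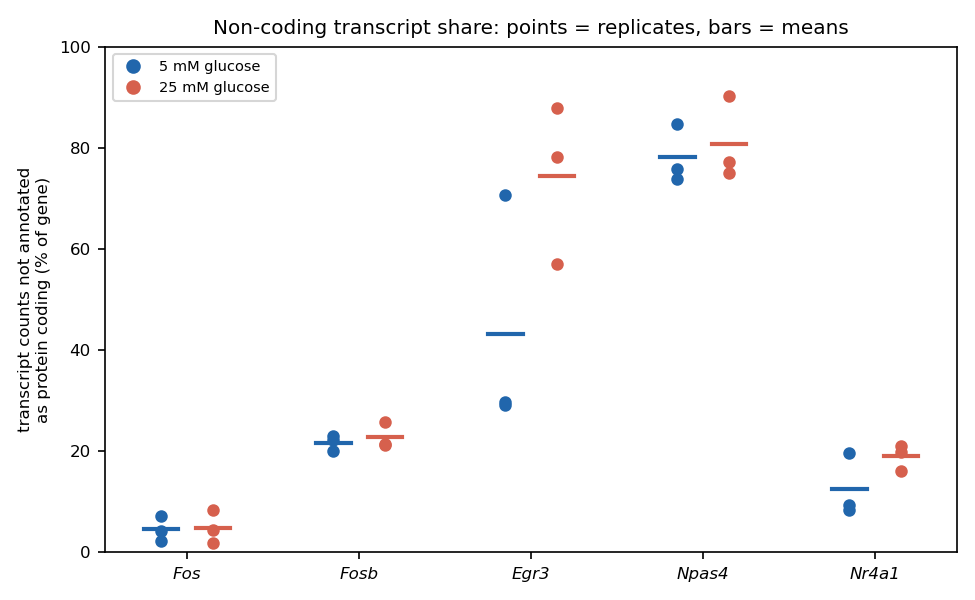
Share of each gene's transcript counts on transcripts not annotated as protein coding, in percent, for the 5 immediate early genes with the most such counts, with points for the 3 biological replicates of each glucose concentration and bars for their means. Npas4 lies highest, near 78.2% and 80.9%, and Egr3 has the widest spread, from 29.2% to 87.9%.

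The gene and transcript tables gave the same totals per library but not the same value for each gene. In 8 of the 10 genes the gene value lay close to the sum of its transcripts, within a ratio of 0.923 to 1.07. Jun had a gene value of 1.96 to 2.01 times its transcript sum in all 6 replicates, a constant factor that left its log2 fold change at -0.35 and -0.32. For Nr4a1 the ratio ran from 0.778 to 1.3, with a mean of 0.907 at 5 mM and 1.19 at 25 mM. Its log2 fold change was 0.04 from gene values and -0.34 (SE 0.25) from transcript sums, where edgeR gave an FDR of 0.373 after Benjamini-Hochberg adjustment.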

How the data were processed

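RNA was measured in 12 libraries of retinal explants, made from 4 ng of total RNA with a stranded low-input kit, 13 PCR cycles and paired reads of 101 bases. The authors deposited an estimated count (expected count) per gene and per transcript, not normalized between libraries. The submitters' processing notes name GRCm38, while the aligner, the counting tool and the use of strand are not given in the sources used here. Of nonzero gene values 100% were not whole numbers. The design had spoken of counts, so technical replicates were summed and rounded.

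Gene names, positions and transcript types came from GENCODE M21 on GRCm38, which named 48766 gene identifiers (90.8%) and matched 92.0% of transcripts. The test between concentrations was edgeR's quasi-likelihood test (edgeR 4.0.16, in its version 3 form, R 4.3.3, limma 3.58.1), with TMM, filterByExpr and Benjamini-Hochberg adjustment over 21061 genes. The biological coefficient of variation was 0.297. CPM values were scaled by TMM, with 2 as the prior count on the log2 scale. Transcript shares were compared by exact permutation tests. Python 3.11.15, pandas 2.3.3, scipy 1.17.1 and matplotlib 3.10.9 made tables and plots, and the test was checked on simulated data. Reads carry no molecular identifiers in the files used, so the totals bound counting error only.

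The 10 genes and the other lists were chosen with earlier results of these data known. Named were all 10 genes, of each other list the members with an FDR under 0.05 or else the 3 with the lowest unadjusted p, of the early response lists also the 3 highest, the 6 most and 3 least like genes by r with a mean of at least 1 CPM, and transcripts with at least 10% of a gene's count. Marker lists are given as counts, with the members under that FDR. Alternatives covered RLE factors, library totals, the newer edgeR method, DESeq2 1.42.0, limma-voom, other filters, a replicate block, each batch alone, 12 libraries with a batch term, equal depth, transcript sums and each replicate left out. Leaving out single libraries was added after seeing the data. Some named items are not reported here.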

Additional observations from a re-analysis of the deposited data

Results flagged for a closer look

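Egr3 was at 14.8 CPM in the second technical replicate of 5 mM replicate 1, and the nearest of the other 5 libraries at 5 mM was its own technical replicate at 9.05 CPM. The gap made up 0.678 of the range of the 6 libraries, above Dixon's 95% critical value for 6 values. With 20 groups of 6 libraries examined, chance gives about 1 such value, and 1 was found.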

How the results depend on the processing

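Over 21 other settings and 10 genes, 186 of 210 log2 fold changes kept their sign and their side of the FDR threshold, 21 turned their sign and 3 passed the threshold. Fosb, Jun, Junb, Egr1, Arc and Ier2 kept one sign in every setting, and the median of the 10 genes ran from -0.5 to -0.06. In batch 1 Egr3 was at 0.05 and Npas4 at 0.47, and in batch 2 Fos at -0.22 and Nr4a1 at -0.45. Egr3 was at 0.01 with a filter of 1 CPM, at 0.01 from transcript sums, where Nr4a1 was at -0.34, and at 0.04 with library totals. Technical replicates at equal depth gave -0.04 for Fos and -0.04 for Nr4a1. Without the second library of 5 mM replicate 1, Egr3 was at 0.1 and Npas4 at 0.25. With each replicate left out in turn, Fos ran from -0.11 to 0.15, Egr3 from -0.18 to 0.25 and Nr4a1 from -0.05 to 0.17. The cause of these turns was not tested.

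Of the 10 genes, 1 passed an FDR under 0.05 with DESeq2 (Junb), and leaving out replicates gave 0 to 2, the 2 being Fosb and Junb without 5 mM replicate 1. Of the 96 other early response genes, edgeR called 0, and the count was 10 with 12 libraries and a batch term, 22 with DESeq2, 23 in batch 1, 1 with the newer edgeR method, 12 without a filter, 1 from transcript sums, 8 without the second library of 5 mM replicate 1, and 0 to 29 with replicates left out. Over all genes the 417 calls became 2918 with 12 libraries and a batch term, 3489 with DESeq2, 3279 in batch 1, 0 in batch 2, 1979 without a filter, 1731 without the second library of 5 mM replicate 1, 0 without the first library of 25 mM replicate 2, and 0 to 5845 with replicates left out, the highest without 5 mM replicate 1. For the share on forms not annotated as protein coding, 0 genes had groups that did not overlap. That count was 2 in batch 1 and 1 in batch 2. Spearman's rho shared 1 of the 6 most like genes.

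Same-numbered replicates correlated at -0.014, -0.449 and 0.285 in their deviations, and differently numbered ones at -0.419 to 0.511. With so few replicates these values cannot decide whether the numbers pair the samples. With a replicate block 990 genes were called, 8 of the 96 early response genes and 0 of the 10 genes, and Egr3 was at 0.01. With 3 replicates per concentration, the 95% interval given for each of the 10 genes sets the precision of its difference.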
